A study of Mus musculus with 6 samples.

Results

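The genes described are those that make cholesterol, sense it, carry it and turn it over. The set holds 33 named genes, which were placed in 4 role groups: the mevalonate pathway, the sterol branch that follows it, the genes that sense and control sterol level, and the genes of transport, storage and turnover. A gene was measured where a probe row was annotated to that gene alone, and where several rows were, the row with the highest mean over the 6 arrays was used. This gave 29 of the 33 genes, out of 22180 genes with such a row and 41345 rows in all. Of the other 4, Idi1 had a row that it shared with another gene name, and Acat2, Nr1h2 and Soat1 had no row under their names. For these 4, expression is not analysed here, and their promoter windows are counted below. The arrays came from male C57BL/6J mice, an inbred laboratory strain. One group of 3 arrays was from mice that received subcutaneous ethanol, 2.5 g/kg in 0.15 M NaCl, and the other group of 3 was from littermates given saline. Each had 2 injections, 2 hours apart, on postnatal day 4 and again on day 7. Every array carried total RNA pooled from 3 mice, of 18 in all, so the replicate is the pool. The tissue is labelled as whole hippocampus. The age is 21 days in the sample characteristics and 70 days in the treatment protocol. The comparison asked whether ethanol in the first postnatal week left a difference in these genes later.

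Cholesterol hardly crosses the blood-brain barrier, so the brain makes its own. Synthesis starts from acetyl-CoA, passes through mevalonate and farnesyl pyrophosphate to squalene, and ends with the closing and trimming of the sterol ring. Oligodendrocytes make large amounts while they lay down myelin, and astrocytes make cholesterol and pass it to neurons on lipoprotein particles. When membranes of the endoplasmic reticulum run low in sterol, SCAP escorts SREBP factors to be cleaved, and these switch on the synthesis genes. INSIG proteins hold SCAP back when sterol is plentiful, and liver X receptors, which bind oxidised sterols, switch on export genes.

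Promoter windows are shown for the genes with the largest difference in the mevalonate pathway (Mvk), the sterol branch (Sc5d) and the control group (Insig1), for Msmo1, the one gene whose groups did not overlap, and for Hmgcs1, the one with an SREBP-type match. Each runs 5′ to 3′ on the gene's strand, from 250 bases before the annotated start to 50 after it, as RefSeq gives it on mouse build GRCm38.p6. Capitals mark matches to TCACNCCAC, a form of the sterol regulatory element, or to CCAAT, the box bound by the factor NF-Y, on either strand (ATTGG is CCAAT on the other strand). The windows lie at chr13:119690101-119690400 on the plus strand for Hmgcs1, chr5:114444019-114444318 plus for Mvk, chr8:64733529-64733828 minus for Msmo1, chr9:42264251-42264550 minus for Sc5d and chr5:28071162-28071461 plus for Insig1.
Hmgcs1: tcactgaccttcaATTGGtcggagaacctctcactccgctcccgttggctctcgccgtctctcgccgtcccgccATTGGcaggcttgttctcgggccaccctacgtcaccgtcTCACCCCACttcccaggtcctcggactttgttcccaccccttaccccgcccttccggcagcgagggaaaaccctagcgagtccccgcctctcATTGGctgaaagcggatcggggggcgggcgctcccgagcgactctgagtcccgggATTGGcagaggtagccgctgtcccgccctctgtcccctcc
Mvk: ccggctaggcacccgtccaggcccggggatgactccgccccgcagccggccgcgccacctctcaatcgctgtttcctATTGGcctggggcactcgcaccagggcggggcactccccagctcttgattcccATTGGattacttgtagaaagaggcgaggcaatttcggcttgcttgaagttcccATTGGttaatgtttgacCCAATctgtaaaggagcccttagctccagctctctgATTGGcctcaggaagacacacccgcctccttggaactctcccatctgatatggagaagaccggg
Msmo1: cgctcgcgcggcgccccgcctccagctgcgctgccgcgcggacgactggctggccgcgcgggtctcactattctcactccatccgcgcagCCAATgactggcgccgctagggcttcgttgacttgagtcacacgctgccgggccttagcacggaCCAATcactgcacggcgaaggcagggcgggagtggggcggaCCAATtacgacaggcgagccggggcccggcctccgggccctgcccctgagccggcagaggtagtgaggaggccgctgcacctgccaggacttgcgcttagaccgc
Sc5d: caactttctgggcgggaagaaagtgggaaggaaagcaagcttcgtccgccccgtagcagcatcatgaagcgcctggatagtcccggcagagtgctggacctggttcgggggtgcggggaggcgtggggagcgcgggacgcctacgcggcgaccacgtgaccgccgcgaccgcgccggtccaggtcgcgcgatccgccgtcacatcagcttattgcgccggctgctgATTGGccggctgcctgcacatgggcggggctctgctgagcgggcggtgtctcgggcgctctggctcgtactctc
Insig1: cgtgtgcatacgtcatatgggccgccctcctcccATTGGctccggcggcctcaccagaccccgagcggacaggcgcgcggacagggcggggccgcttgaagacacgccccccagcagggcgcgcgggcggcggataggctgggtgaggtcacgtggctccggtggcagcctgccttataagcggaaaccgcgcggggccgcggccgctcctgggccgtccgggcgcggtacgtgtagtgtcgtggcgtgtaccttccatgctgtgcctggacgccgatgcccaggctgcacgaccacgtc

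Windows were at hand for 27 of the 33 genes, 38 windows in all because some genes have several starts. CCAAT was in 22 of these 38 windows (57.9%), against 37.4% of 32544 windows of all genes. By gene it was in 9 of 9 sterol branch genes, 5 of 6 mevalonate genes, 4 of 7 control genes and 3 of 5 transport genes with a window, where 41.0% of all genes had it in at least 1 window. Mvk held 5 matches in its single window and Hmgcs1 held 4. TCACNCCAC was found once, in Hmgcs1 as TCACCCCAC from base 114 of the window, against 1.24% of all windows. The E-box CACGTG was in 7 of the 38 windows, against 7.17% of all, and by gene in 6 of 27, against 8.11% of all genes. The windows of Sc5d and Insig1 shown above hold it, in lower case. The liver X receptor repeat, AGGTCA followed after 4 bases by AGGTCA again, was in 0 of 38, against 0.0154% of all. In Hmgcs1 no CCAAT match overlaps the TCACCCCAC match. A match describes the letters of the window and is not a measured site.

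Over all rows, limma called 0 of 41345 at an adjusted p under 0.05, a share of 0.00%, with the smallest adjusted p at 0.857 and 2290 rows (5.54%) at an unadjusted p under 0.05. The median log2 value per array lay between 6.55 and 6.66. Values were most spread on ethanol array 2 (SD over rows 2.03) and least on saline array 2 (1.97). For the labelled tissue, 14 markers of hippocampal pyramidal and granule neurons had a median level of 7.33 against 7.10 for the median gene. They ran from Cpne4 at 6.16 to Slc17a7 at 10.95, with the pyramidal neuron factors Neurod6 at 6.76 and Emx1 at 6.39. A list of 13 cerebellar neuron markers had a median level of 10.68. These ran from Barhl1 at 7.45 to Car8 of Purkinje cells at 12.44, with Gabra6 of granule cells at 12.17. Rows differ in how strongly their probes bind, so levels of different genes do not rank their transcripts. Cerebellar markers nonetheless read high in RNA labelled as hippocampus, and which tissue the pools held was not tested. In bulk tissue, fewer cells of a type and less RNA per cell cannot be told apart.

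Most of the sterol genes had a slightly higher mean in ethanol than in saline, and none passed the test. The mean was higher in ethanol for 26 of 29 genes, where 57.2% of all genes had a difference above 0. The median log2 difference was 0.08 over the 29 genes and 0.02 over all genes. With quantile normalization 22 of 29 were higher beside 57.9% of all genes, with medians of 0.03 and 0.02. After cyclic loess, which evens out trends with signal level, 18 of 29 were higher beside 54.5% of all genes, with medians of 0.03 and 0.01. Without saline array 2, 21 of 29 were higher beside 52.5% of all genes, with medians of 0.04 and 0.01. A difference of at least 0.1 before rounding was seen in 11 of 29 genes, against 19.8% of all genes. Adjusted p-values of the 29 genes in limma ran from 0.857 to 0.991. At an unadjusted p under 0.05 the count was 0 of 29, where 3.18% of all genes had such a p (1.20% higher and 1.98% lower in ethanol), and the smallest was 0.071, for Sc5d. In 1 of 29 genes, Msmo1, every ethanol array was above every saline array, against 5.74% of all genes, and in 0 of 29 every ethanol array was below, against 4.72%. Single differences ran from -0.06 for Pmvk to 0.20 for Sc5d, with standard errors near 0.09, and the 95% intervals of all 29 included 0. The interval reaching highest ended at 0.48 and the one reaching lowest at -0.24.

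**Figure D1:**
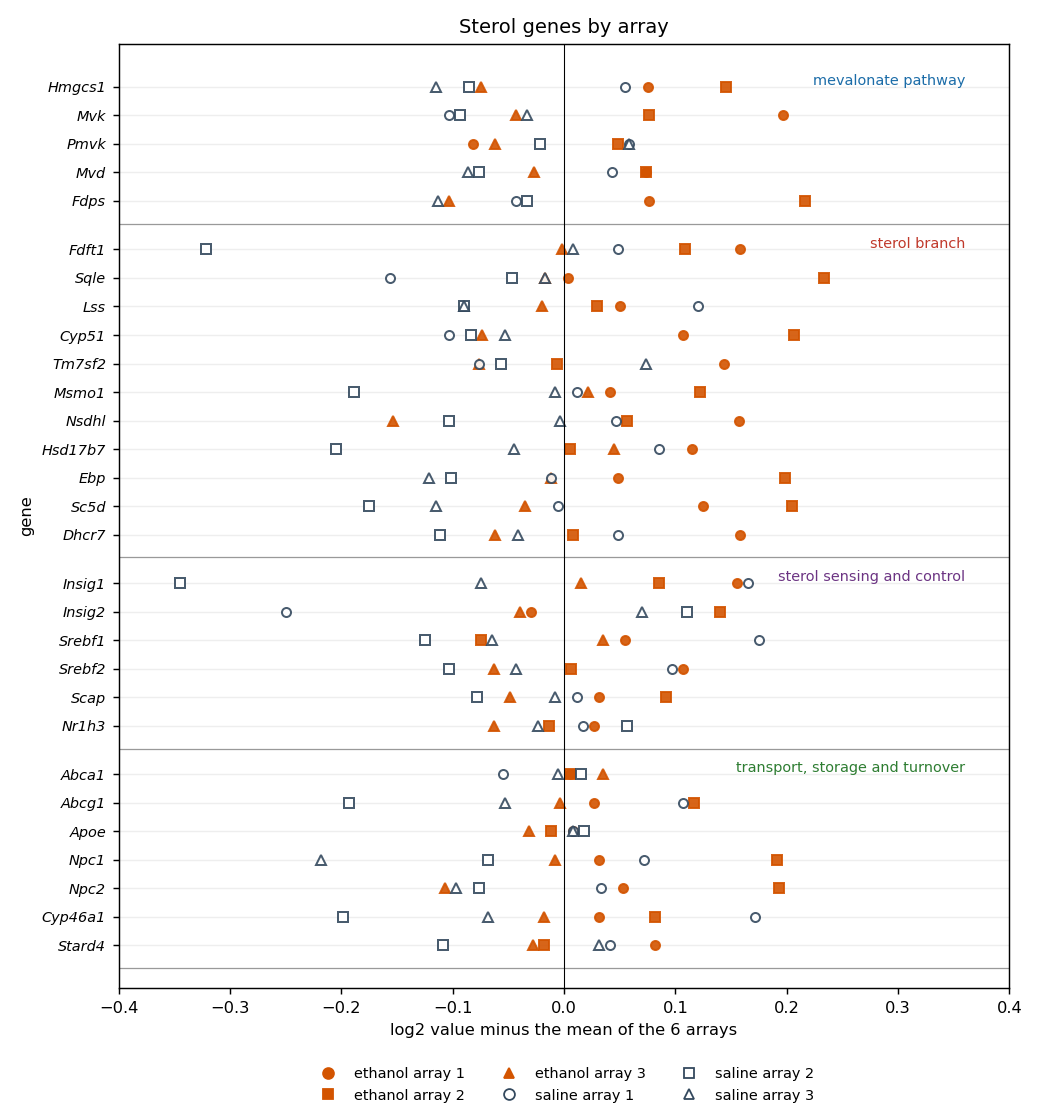
Each point is the log2 value of a gene on 1 array minus that gene's mean over the 6 arrays, for 29 genes in 4 role groups; filled orange symbols are ethanol arrays and open dark symbols are saline arrays. Ethanol arrays 1 and 2 lie above the mean in 27 and 23 genes, whereas ethanol array 3 lies above it in 5, among the saline arrays 2 and 3 with 4 and 6.

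The arrays of a group did not move together in these genes. Ethanol array 1 stood above the 6-array mean in 27 of 29 genes, ethanol array 2 in 23 and saline array 1 in 20. Ethanol array 3 stood above it in 5 genes, saline array 2 in 4 and saline array 3 in 6. When all genes were split by signal level into 10 equal bins, 28 of the 29 sterol genes lay in the 4 brightest. Among all genes of those 4 bins, the shares above the mean were 60.3%, 77.8% and 55.9% for the first 3 of these arrays and 52.3%, 16.5% and 46.6% for the others. Bright genes as a whole were thus also low on saline array 2 and high on ethanol array 2. Ethanol array 3 was below the mean in 24 sterol genes while bright genes were split about evenly on it. Ethanol array 2 had the highest value in 12 of 29 genes, against 23.1% of all genes, and ethanol array 1 in 9, against 13.0%. The highest value was on saline array 1 in 5 (21.2%), saline array 2 in 2 (14.2%), ethanol array 3 in 1 (12.6%) and saline array 3 in 0 (15.9%). The lowest value was on saline array 2 in 13 of 29 genes, against 29.7% of all genes. It was on saline array 1 in 5 (13.8%), ethanol array 3 in 5 (11.3%), saline array 3 in 5 (17.8%), ethanol array 1 in 1 (9.88%) and ethanol array 2 in 0 (17.4%). After cyclic loess the median deviation of the sterol genes was 0.04, 0.02 and -0.03 on ethanol arrays 1 to 3 and 0.03, -0.01 and -0.03 on saline arrays 1 to 3, so the arrays with a low median were still ethanol array 3 and saline arrays 2 and 3.

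Without ethanol array 3, the remaining 2 ethanol arrays stood above all saline arrays in 13 of 29 genes, against 12.7% of all genes under the same omission. Without saline array 1 the count was 11, against 18.2%. Without saline array 3 it was 4, against 13.5%, and 1 gene, Apoe, lay below, against 10.2% of all genes. Without ethanol array 1 the count was 1, against 10.8%, and 1 gene, Apoe, lay below, against 9.13%. Without ethanol array 2 it was 1, against 9.28%, and 1 gene, Pmvk, lay below, against 7.37%. Without saline array 2 the count was 2 (Msmo1 and Abca1), against 8.79%, and 1 gene, Pmvk, lay below, against 9.17%. The number of genes at an unadjusted p under 0.05 was 2 without ethanol array 3 (Cyp51 and Sc5d) and 1 without saline array 1 (Insig1), all higher in ethanol. The shares of all genes higher at such a p were 1.03% and 3.30% under these omissions, and no adjusted p of a sterol gene went below 0.515 in limma. The shares given here take in genes of every signal level. With all 6 arrays, every ethanol array was above every saline array in 5.74% of all genes but in 12.9% of the brightest bin. Shares by signal level were not computed under the omissions.

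In the mevalonate pathway, 4 of the 5 measured genes had a higher mean in ethanol on the deposited scale and under each of the 3 other scalings, with a median difference of 0.10 (0.04 after cyclic loess). Mvk, the kinase that phosphorylates mevalonate, had the largest difference of the group. Its values were 8.21, 8.09 and 7.97 on ethanol arrays 1 to 3 and 7.91, 7.92 and 7.98 on saline arrays 1 to 3. Ethanol array 3 lay just under the highest saline array, so the groups overlapped at 1 array. The means were 8.09 ± 0.12 in ethanol and 7.94 ± 0.04 in saline (SD, n = 3), a difference of 0.15 ± 0.09 (SE), with an adjusted p of 0.857 in limma. After cyclic loess Mvk stood at 0.12. Without ethanol array 1 it stood at 0.09 and without ethanol array 3 at 0.21.

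Hmgcs1 makes HMG-CoA, the substrate of the rate-limiting step, and its window carries the SREBP-type match shown above. Its values were 11.25, 11.32 and 11.10 in ethanol and 11.23, 11.09 and 11.06 in saline. The array of each group with the lowest value was array 3, and saline array 1 lay between the ethanol arrays. Its difference of 0.10 ± 0.09 (SE, 3 arrays against 3) became 0.01 after cyclic loess and 0.02 with quantile normalization. Fdps, which makes farnesyl pyrophosphate, read 8.75, 8.89 and 8.57 in ethanol and 8.63, 8.64 and 8.56 in saline, a difference of 0.13 ± 0.10. Its ethanol spread (SD 0.16) was about as wide as the difference, and ethanol array 3 lay below the 2 highest saline arrays. Mvd, the decarboxylase that forms isopentenyl pyrophosphate, differed by 0.08 ± 0.08, with arrays from 8.29 to 8.45. Pmvk, the kinase next to Mvk in the pathway, was the exception in direction. Its values were 8.52, 8.65 and 8.54 in ethanol and 8.66, 8.58 and 8.66 in saline, a difference of -0.06 ± 0.08. Under quantile normalization and after cyclic loess Pmvk stood at -0.11 and its groups no longer overlapped.

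In the sterol branch, which runs from squalene to cholesterol, all 11 genes were measured and 11 had a higher mean in ethanol on the deposited scale. The median difference was 0.12 on the deposited scale, beside 0.10 in the mevalonate pathway. Without saline array 2 these medians were 0.06 and 0.08, and without both arrays numbered 2 they were 0.05 and 0.05, so the order of the role groups was not kept. With quantile normalization 10 of 11 were above 0 and after cyclic loess 8 of 11, with a median of 0.08 in both. Sc5d, the desaturase that acts near the end of the pathway, had the largest difference of the 29 genes on the deposited scale. Mvk stood above it with quantile normalization (0.13 against 0.12), and Insig1 did without saline array 1 (0.29 against 0.25). Without ethanol array 2, Fdft1 and Insig1, both at 0.17, stood above Sc5d at 0.15. Without both arrays numbered 2, Mvk did (0.14 against 0.11), so the rank of Sc5d was not kept. It read 10.13, 10.21 and 9.97 in ethanol and 9.83 and 9.89 on saline arrays 2 and 3. Ethanol arrays 1 and 2 were above all saline arrays, and saline array 1 lay just above ethanol array 3. The means were 10.11 ± 0.13 and 9.90 ± 0.09 (SD, n = 3), and the difference was 0.20 ± 0.09 (SE), a ratio of 1.15, with a 95% interval from -0.02 to 0.43. The adjusted p was 0.857 in limma. The difference was 0.12 after cyclic loess and 0.11 without ethanol array 2 and saline array 2 together.

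Msmo1, a monooxygenase of the methyl-removing steps, was the one gene whose groups did not overlap. Its values were 8.44, 8.52 and 8.42 in ethanol and 8.41, 8.21 and 8.39 in saline. The gap between the lowest ethanol and the highest saline array was small, and saline array 2 stood well under the rest. The difference was 0.12 ± 0.09 (SE, 3 arrays against 3; adjusted p of 0.862 in limma), and 0.06 without saline array 2. With quantile normalization its groups overlapped.

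Fdft1, squalene synthase, which commits farnesyl pyrophosphate to sterols, read 10.43, 10.38 and 10.27 in ethanol and 10.32, 9.95 and 10.28 in saline. A single array, saline array 2, lay far below the other 5, and the difference of 0.17 ± 0.12 became 0.06 without it. Sqle, the epoxidase that follows, read 8.99, 9.22 and 8.97 in ethanol and 8.83, 8.94 and 8.97 in saline, and differed by 0.14 ± 0.10. Here the outlying value was high, on ethanol array 2, and without that array the difference was 0.07. Cyp51, the demethylase of lanosterol, read 9.48, 9.58 and 9.30 in ethanol and 9.27, 9.29 and 9.32 in saline. Its saline arrays lay close together (SD 0.03), ethanol array 3 lay among them, and the difference was 0.16 ± 0.09. Ebp, the sterol isomerase, read 9.44, 9.59 and 9.38 in ethanol and 9.38, 9.29 and 9.27 in saline, a difference of 0.16 ± 0.09, with ethanol array 3 level with saline array 1.

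The remaining 5 sterol branch genes differed by less. Hsd17b7, a reductase of the methyl-removing steps, stood at 0.11 ± 0.10, and at 0.03 without saline array 2. Dhcr7, which carries out the last reduction to cholesterol, stood at 0.07 ± 0.09, Lss, which closes the ring to lanosterol, at 0.04 ± 0.09, Tm7sf2, a ring reductase, at 0.04 ± 0.09, and Nsdhl, a dehydrogenase of the methyl-removing steps, at 0.04 ± 0.10. In Tm7sf2 and Nsdhl the lowest of the 6 arrays was ethanol array 3. After cyclic loess Nsdhl stood at -0.03, and Lss and Dhcr7 stood at -0.00, so these 3 did not keep their direction.

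**Figure D2:**
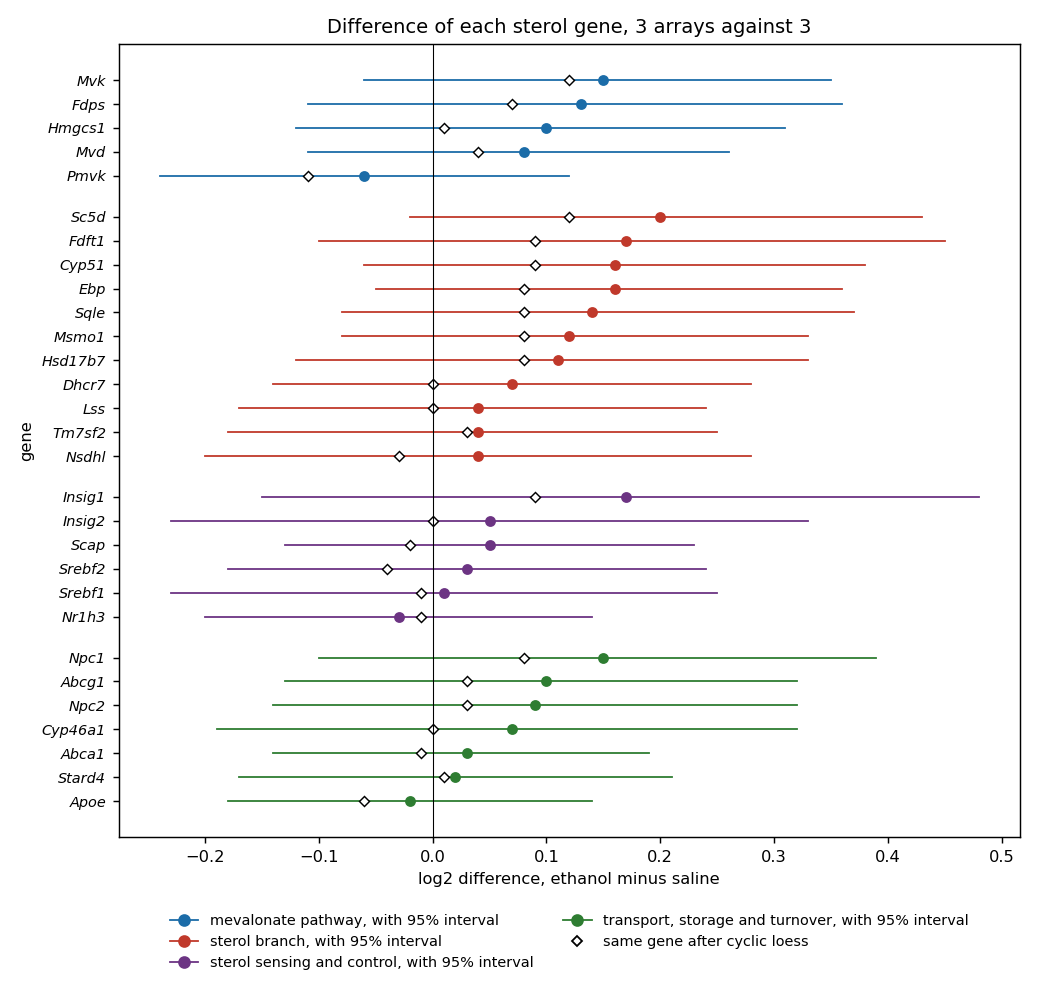
Filled points are log2 differences, ethanol minus saline, on the deposited scale, with 95% intervals from limma (3 arrays against 3); open diamonds are the same genes after cyclic loess. All intervals include 0, and the count of genes above 0 goes from 26 of 29 on the deposited scale (57.2% of all genes) to 18 of 29 after cyclic loess (54.5% of all genes).

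Among the genes of sterol sensing and control, 5 of 6 had a higher mean in ethanol on the deposited scale, but 3 with quantile normalization and 2 after cyclic loess, with medians of 0.04, 0.00 and -0.01. Insig1, which anchors SCAP and is itself switched on by SREBP factors, had the largest difference of the group on the deposited scale. It read 10.11, 10.04 and 9.97 in ethanol and 10.12, 9.61 and 9.88 in saline. Saline array 1 was the highest of all and saline array 2 the lowest, a range of 0.51 that was the widest of the 29 genes. The difference was 0.17 ± 0.13 (SE; adjusted p of 0.869 in limma), and 0.04 without saline array 2 and 0.29 without saline array 1. Insig2, which has the same anchoring role, read 8.42, 8.59 and 8.41 in ethanol and 8.20, 8.56 and 8.52 in saline, a difference of 0.05 ± 0.12. This became 0.11 without saline array 2, above Insig1, and -0.01 without ethanol array 2. In Insig2 the low array was saline array 1, so the pair did not share the array that set their saline means. The SREBP genes stood near 0, with Srebf1, better known for fatty acid genes, at 0.01 ± 0.10 and Srebf2, better known for cholesterol genes, at 0.03 ± 0.09. Srebf2 read 9.60, 9.50 and 9.43 in ethanol and 9.59, 9.39 and 9.45 in saline, so array 1 was the highest in both groups. Scap had 2 rows, which differed by 0.05 ± 0.08 in the brighter and -0.02 ± 0.08 in the dimmer. Nr1h3, the liver X receptor alpha gene, had arrays from 6.82 to 6.94 and a difference of -0.03 ± 0.07.

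Among the genes of transport, storage and turnover, 6 of 7 had a higher mean in ethanol on the deposited scale, 5 with quantile normalization and 4 after cyclic loess, with medians of 0.07, 0.01 and 0.01. Npc1 is the membrane protein that moves cholesterol out of lysosomes. In the brighter of its 2 rows it read 9.00, 9.16 and 8.96 in ethanol and 9.04, 8.90 and 8.75 in saline, a difference of 0.15 ± 0.10 (SE, 3 arrays against 3; adjusted p of 0.862 in limma). The dimmer row read 6.28, 6.48 and 6.53 in ethanol and 6.67, 6.42 and 6.67 in saline, a difference of -0.16 ± 0.11. The 2 rows of Npc1 went in opposite directions, and their mean differed by -0.01. The brighter row stood at 0.07 without saline array 3. Npc2, the soluble lysosomal partner, stood at 0.09 ± 0.10, and at 0.00 without ethanol array 2 and saline array 2 together. Abcg1, an exporter of cholesterol, stood at 0.10 ± 0.10 with saline array 2 lowest, and at 0.02 without that array. Cyp46a1, the neuronal enzyme that hydroxylates cholesterol so that it can leave the brain, read 9.35, 9.40 and 9.30 in ethanol and 9.49, 9.12 and 9.25 in saline. Its saline arrays enclosed all ethanol arrays, and the difference was 0.07 ± 0.11. It became -0.02 without saline array 2 and -0.00 after cyclic loess, so its direction was not kept.

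Apoe and Abca1, which build the lipoprotein particles of astrocytes, had the smallest ranges over the arrays. Apoe, the main apolipoprotein of brain, read 8.37, 8.35 and 8.33 in ethanol and 8.37, 8.38 and 8.37 in saline. Its range of 0.05 over the 6 arrays was the smallest of the 29 genes, and its difference was -0.02 ± 0.07, with a 95% interval from -0.18 to 0.14. With quantile normalization and after cyclic loess Apoe stood at -0.06 and its groups no longer overlapped, with ethanol lower. Abca1, the exporter that loads apolipoprotein E with lipid, read 8.24, 8.24 and 8.27 in ethanol and 8.18, 8.25 and 8.23 in saline, a difference of 0.03 ± 0.07. Stard4, a sterol carrier of the cytosol, stood at 0.02 ± 0.08.

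The differences followed signal level, in these genes as in all genes. Over all 22180 genes the rank correlation between mean level and the ethanol difference was 0.375, and over the 29 sterol genes it was 0.572. These are across genes, which share the 6 arrays and are not independent replicates. Of the 9 sterol genes in the brightest of the 10 bins, 9 were higher in ethanol, as were 92.8% of all genes of that bin, with medians of 0.16 and 0.08. In the bin below, 7 of 8 were higher beside 85.0% of all genes, with medians of 0.09 and 0.07. In the next bin down 5 of 6 were higher beside 75.2%, with medians of 0.04 and 0.05, and in the one after that 5 of 5 beside 64.3%, with medians of 0.04 and 0.03. The count of genes above 0 is thus read against shares well above the 57.2% of all genes. For differences of at least 0.1, no share by bin was computed. How much of the median difference of the sterol genes goes with signal level was not tested beyond the scalings given.

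**Figure D3:**
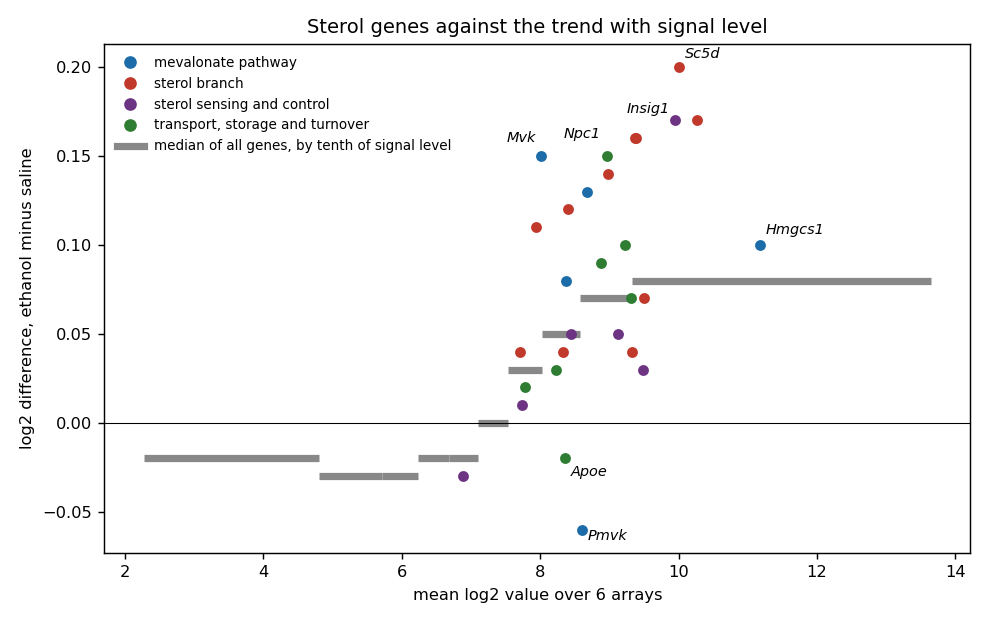
Points are the 29 sterol genes, with the mean log2 value over 6 arrays on the x axis and the log2 difference, ethanol minus saline, on the y axis; grey bars are the medians of all genes in 10 equal bins of signal level. The medians run from -0.03 in a dim bin to 0.08 in the brightest, and the sterol genes lie on both sides of them, from Pmvk at -0.06 to Sc5d at 0.20.

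Markers of the cells that make sterols differed between arrays as well. Of 15 astrocyte markers 14 had a higher mean in ethanol, with a median difference of 0.09; their summed signal on the linear scale ran from 25011 to 27287 in ethanol and from 23094 to 26073 in saline. Of 13 measured markers of myelinating oligodendrocytes 10 were higher, with a median of 0.03 and summed signals from 21946 to 28889 in ethanol and from 22847 to 27043 in saline. Of 12 endothelial and mural markers 11 were higher, with a median of 0.12 and sums from 5061 to 5746 and from 4615 to 5539. The median levels of the 3 lists, in this order, were 9.89, 10.63 and 8.16. Of all genes in the signal bins of those levels, 92.8%, 92.8% and 75.2% were higher, with medians of 0.08, 0.08 and 0.05. The summed signals of these 3 lists overlapped between groups. Every ethanol array was above every saline array in 1 of 15 astrocyte markers, Aqp4, and 1 of 12 endothelial and mural markers, Rgs5. The oligodendrocyte markers had 0 of 13. The differences were 0.26 and 0.23, and 12.9% of all genes in the brightest bin, which holds both, were so placed. Aqp4 had an unadjusted p of 0.00869 and an adjusted p of 0.857 in limma. No marker was listed at 0, the dimmest of the astrocyte list being Gjb6 at 7.17 and of the oligodendrocyte list Gal3st1 at 7.81. Microglia markers had a median of -0.02 and oligodendrocyte precursor markers of 0.00. The oligodendrocyte markers stood at 0.07, 0.19 and -0.21 from their 6-array mean on ethanol arrays 1 to 3, and at 0.05, -0.00 and -0.14 on saline arrays 1 to 3. The sterol branch genes stood at 0.12, 0.10 and -0.02 and at 0.01, -0.10 and -0.04 on the same arrays. Both lists were above the mean on ethanol arrays 1 and 2 and below it on array 3 of each group, and they parted on saline array 2. The astrocyte markers stood at 0.05, 0.14 and -0.03 on the ethanol arrays and 0.06, -0.14 and -0.07 on the saline arrays, and the endothelial and mural markers at 0.06, 0.14 and -0.04 and at 0.08, -0.15 and -0.11. Both of these lists had the sign of the sterol branch genes on all 6 arrays. So did the microglia markers, at 0.03, 0.02 and -0.06 in ethanol and 0.15, -0.04 and -0.10 in saline. The oligodendrocyte precursor markers also did, at 0.05, 0.12 and -0.07 and at 0.08, -0.05 and -0.07. Genes of fatty acid synthesis, described below, had these signs as well, so the signs are not particular to the astrocyte and vessel lists. The summed signal of the cerebellar neuron markers did not overlap between groups, with 32892 to 33809 in ethanol and 31368 to 31806 in saline. Of these 13 markers 10 were higher, with a median of 0.08. Their median level of 10.68 lies in the brightest bin, where 92.8% of all genes were higher, with a median of 0.08. In 2 of the 13 every ethanol array was above every saline array, against 12.9% of all genes of that bin. In 1 every ethanol array was below, against 4.72% of all genes. The part of these cell types in the sterol differences was not tested.

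**Figure D4:**
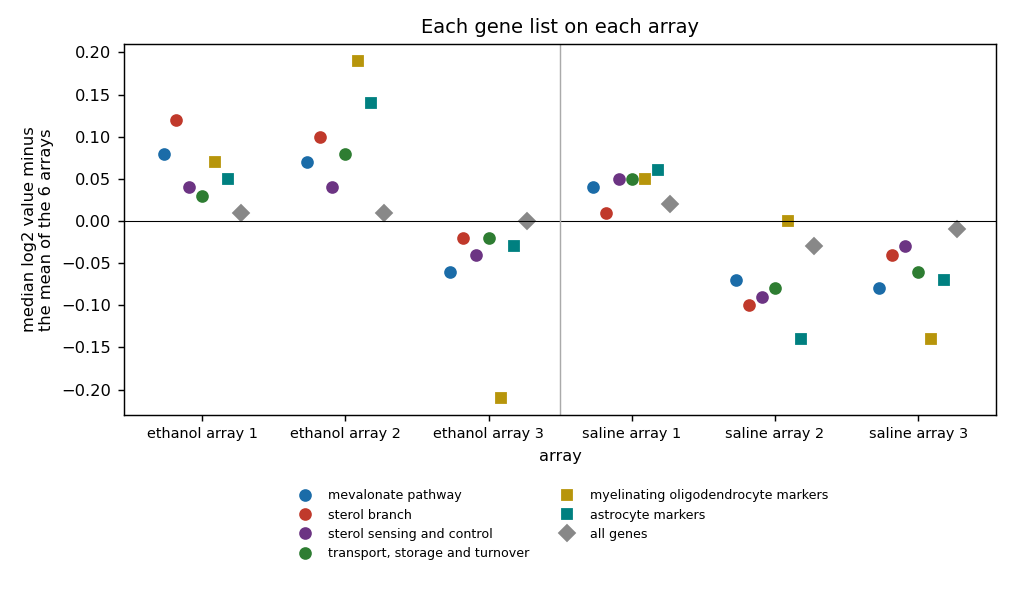
For each array, the points are the median, over the genes of a list, of the log2 value minus that gene's mean over the 6 arrays; circles are the 4 role groups of sterol genes, squares are marker lists and grey diamonds are all genes. The role groups lie above 0 on ethanol arrays 1 and 2 and saline array 1, and below 0 on ethanol array 3 and saline arrays 2 and 3.

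Other genes of the same pathways were taken from lists of 15, 34 and 17 genes. Of 9 measured genes of sterol synthesis and SREBP processing outside the set, 9 were higher in ethanol, with a median of 0.06, 0 at an unadjusted p under 0.05 and differences from 0.02 to 0.19. Of 31 measured genes of sterol uptake, transport and turnover, 25 were higher and 6 lower, with a median of 0.05, and 1 had an unadjusted p under 0.05, where 3.18% of all genes had one. In 4 of the 31 every ethanol array was above every saline array, against 5.74% of all genes. These were Lipa, Nceh1, Lcat and the fatty acid binding protein gene Fabp7, with differences of 0.15, 0.21, 0.29 and 0.20. In the bins of their signal levels the share was 9.42% (Lipa and Nceh1) and 12.9% (Lcat and Fabp7). The gene with the p under 0.05 was Lcat, which esterifies cholesterol on lipoproteins. It read 10.57, 10.61 and 10.52 in ethanol and 10.49, 10.08 and 10.26 in saline. The groups did not overlap, saline array 2 was again the lowest, and the difference was 0.29 ± 0.11 (SE; adjusted p of 0.857 in limma). Of 15 measured genes of fatty acid synthesis, a pathway under SREBP-1, 13 were higher and 2 lower, with a median of 0.08 and 0 at an unadjusted p under 0.05. Of the 3 retinoid X receptor genes, the partners of liver X receptors, 2 were higher and 1 lower, with differences from -0.03 to 0.13. None of these genes passed the adjusted test, and all share the arrays and the trend with signal level described above. The synthesis and transport lists had median levels of 8.78 and 8.71, in the bin where 85.0% of all genes were higher, with a median of 0.07. The fatty acid list, at 9.70, lay in the brightest bin, where 92.8% were higher, with a median of 0.08.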

How the data were processed

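Expression was measured on 6 Affymetrix arrays, 3 per group. The deposited table held log2 values per probe row, 1 column per array; that they are log2 was read from their range and similar quartiles. Each array received material amplified from 200 ng of RNA, per the labels' protocols. Background correction, summarization and normalization are not given in the sources used here. The build was mm10, per the submitters' processing notes. By GEO's platform annotation 23521 rows have 1 gene symbol, 1814 several, and 16010 are unnamed here. Positions of all 29 measured genes matched a RefSeq table of GRCm38.

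All rows were fitted with limma 3.58.1 in R 4.3.3 (lmFit, eBayes, no covariate, no filter, two-sided), with 4 residual and 2.94 prior degrees of freedom and Benjamini-Hochberg adjustment over 41345 rows at 0.05. The fit was tested on simulated data. An exact permutation test of 3 against 3 arrays cannot go below 0.1. The p-values rest on how pools vary, and having few arrays limits precision.

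Full values are given for sterol genes with an unadjusted p under 0.05 or groups apart, for the largest difference in each role group, and for genes of the other pathway lists with an unadjusted p under 0.05; other genes given in full were chosen after their values were seen. The genes and lists were chosen with earlier results of these data known. Same-numbered arrays did not deviate together over all rows (correlations 0.10, -0.06 and 0.04), so no pairing was used. Alternatives covered scaling, prior, filters, weights, the row per gene, a replicate block and leaving out arrays.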

Additional observations from a re-analysis of the deposited data

How the results depend on the processing

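Over 17 alternatives the sterol genes higher in ethanol numbered 18 to 28 of 29 and their median difference ran from 0.03 to 0.12. Rows called were counted in 15 of these alternatives, without the 2 that change the row per gene. They stayed at 0, also with the replicate number as a block, except for 0 to 1 when 1 array was left out (1 without saline array 3). Sterol genes higher at an unadjusted p under 0.05 numbered 1 with a trended robust prior (1.59% of all genes), 1 among rows naming 1 gene (2.03%), 1 with the mean of all rows per gene (2.06%; Sc5d each time), and 0 to 2 leaving out 1 array; those lower numbered 0 throughout. Genes with groups apart and ethanol higher numbered 0 with quantile normalization (5.70% of all genes), 3 with median centring (9.29%) and 2 without ethanol and saline replicates 2 together (14.0%), and 1 to 13 leaving out 1 array, which leaves 2 arrays in a group and loosens the demand by construction. With ethanol lower they numbered 2 with quantile normalization (3.66% of all genes) and 2 after cyclic loess (4.17%), Pmvk and Apoe both times. They numbered 1 without both replicates 2 (14.6%), and 0 to 1 leaving out 1 array (7.37% to 10.2%). Npc1 reversed to -0.16 in its dimmer row and -0.01 in the mean of its rows. The cause of the changes with scaling was not tested.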
